A study of Mus musculus with 12 samples.

Results

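Isolated distal CpGs are single differentially methylated positions that lie far from any protein-coding gene. The members are the rows of the authors' deposited table that lie more than 50 kb from the nearest protein-coding gene span, on chromosomes 1 to 19 and X. Rows with another listed row within 100 bp were left out, as were rows near either end of a long noncoding RNA (lncRNA) gene, up to 1000 bp beyond the end or 100 bp within it. Of 2798 listed sites, 628 lay beyond 50 kb, and 511 (18.3% of the list) met the whole rule. Within the list the rule used position alone and took no account of direction or size. The list itself holds only differences of at least 25 percentage points, and a site counts as isolated only with respect to other listed rows.

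The series measured DNA methylation by reduced representation bisulfite sequencing (RRBS), which enriches CpG-rich restriction fragments before bisulfite treatment. The DNA came from splenic dendritic cells, selected by the surface integrin CD11c, of first-generation (F1) female C57BL/6 mice. In the maternal DEHP group (6 libraries) the mothers had received the plasticiser di(2-ethylhexyl) phthalate, over 10 days at a daily dose of 37 µg per kg. In the maternal corn oil group (6 libraries) the mothers had received the vehicle. The parents were C57BL/6 mice of 6 to 8 weeks at delivery to the animal unit, the fathers were untreated, and the labels give OVA as the immunisation status of all 12 libraries. The sources used here do not give the age of the offspring, the number of mothers or whether a library came from a single animal. Spleen tissue is named beside dendritic cells in the note on extraction. The table holds 1 difference per site between the groups as wholes. A level per library, a standard deviation and a read depth can therefore not be given for any site. The purity of the cells could not be checked against marker genes. A positive difference is called a gain and is read as more methylation after maternal DEHP, a direction that the table does not state.

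In mammals, most CpGs outside promoters are methylated. DNA far from coding genes holds enhancers, lncRNA genes, small RNA genes and repeats. Stretches with no coding gene over a very long distance are called gene deserts, and many of them flank genes of development, cell adhesion and the nervous system. Enhancers in such stretches can act on genes a long way off, so the nearest gene named below is a landmark of position and not a target.

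The listed positions themselves fell on the C of a CpG. This could be read for the 74 listed sites inside RefSeq promoter windows (GRCm38.p6, from 250 bases before to 50 bases after a gene's start), of which 74 had CG on the plus strand at the listed position and 27 lay within CCGG, the site cut by the enzyme MspI. By the rule, the isolated distal CpGs lie outside such windows at lncRNA ends, and the sequence around them was not used here. A pair of listed CpGs beyond 50 kb that the rule left out is printed as examples of listed positions. They are not members, because they lay at the start of an lncRNA gene (the second also has another listed site within 100 bp). The sequence around the isolated distal CpGs cannot be read from them. Capitals mark the listed CpG, and both runs are the plus strand.
Gm46875, chr4:142304347-142304468: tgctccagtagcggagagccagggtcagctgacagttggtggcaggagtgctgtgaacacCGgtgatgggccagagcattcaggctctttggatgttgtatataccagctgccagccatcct
Gm36234, chr7:35923116-35923237: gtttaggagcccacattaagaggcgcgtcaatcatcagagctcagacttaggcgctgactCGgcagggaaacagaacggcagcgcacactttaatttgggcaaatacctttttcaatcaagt
The first run held 2 CpGs and 1 CCGG, on which the listed site lay, and the second held 6 CpGs and 0 CCGG. CCGG, which reads the same on both strands, was present in 27.4% of RefSeq promoter windows cut to the same 122 bases. In the authors' deposited table the first site, 65.0 kb from the nearest coding gene Kazn, had a difference of -32.3 percentage points. The second, 120 kb from Zfp507, had a gain of 28.1 points.

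Losses slightly outnumbered gains among the isolated distal CpGs, as they did in the whole list. Of the 511 sites in the authors' deposited table, 242 (47.4%) were gains and 269 (52.6%) were losses. Over all 2798 listed sites the shares were 48.4% and 51.6%, so the split of the distal sites was close to that of the list. The median gain was 27.9 percentage points and the median loss was -28.1 points, against 28.8 and -28.7 over the list. The median size, in either direction, was 28.0 points with quartiles of 26.2 and 31.0. A size of 30 points or more was reached by 167 distal sites (32.7%), against 39.4% of all listed sites. A size of 40 points or more was reached by 15 (2.94%), against 5.43%, and these were 7 gains and 8 losses (background shares of 2.86% and 2.57%). Large differences were therefore less frequent here by count, which was not tested because the list has no values per library.

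Isolated sites closer to genes were set beside them. Of 587 isolated sites outside but within 50 kb of a coding span, 311 (53.0%) were gains, the median size was 28.3 points and 5.11% reached 40 points. Of 1123 isolated sites inside coding spans, 537 (47.8%) were gains, the median size was 29.1 points and 4.63% reached 40 points. The deposited q-value was 0 at 349 of the 511 distal sites (68.3%) and at 74.1% of all listed sites, and the largest q-value of a distal site was 3.19e-05.

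The distance to the nearest coding span ran from 50.3 kb to 1.79 Mb, with a median of 182 kb. Gains and losses occurred at every distance. From 50 to 100 kb there were 67 gains and 60 losses, from 100 to 200 kb 71 and 73, and from 200 to 500 kb 56 and 79. From 500 to 1000 kb there were 33 gains and 38 losses, and beyond that 15 and 19. The median size stayed between 27.8 and 28.4 points in these 5 classes, so size showed no trend with distance. These counts rest on the authors' deposited table and on the number of CpGs that RRBS covered in each class, which is unknown.

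**Figure D1:**
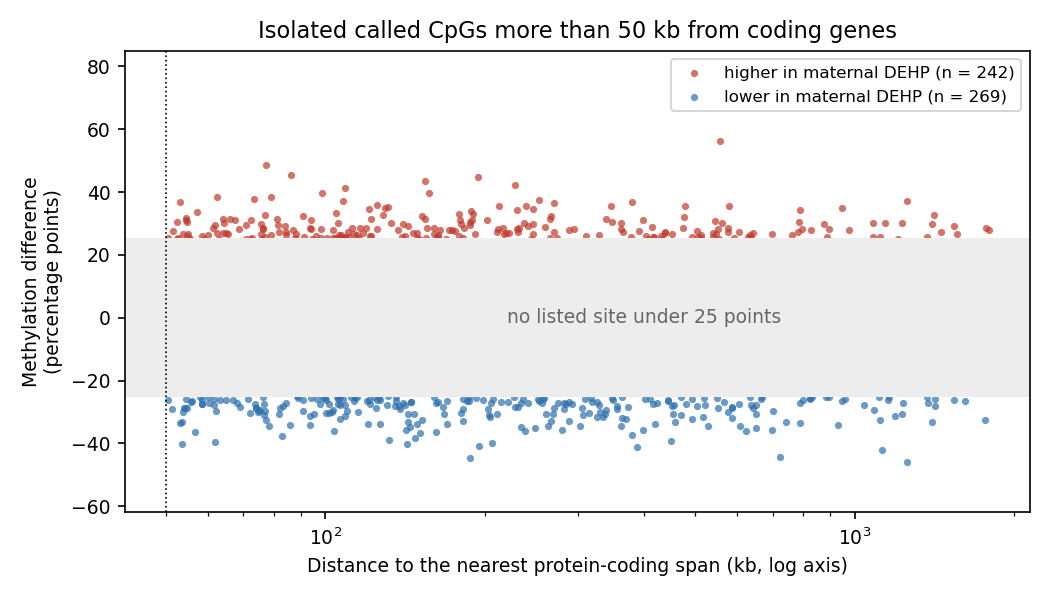
Methylation difference in percentage points against the distance to the nearest protein-coding span in kb (log axis) for the 511 isolated distal CpGs, red for gains (242) and blue for losses (269). The dotted line marks 50 kb and the grey band the sizes under 25 points, which the list does not hold; points lie close to the band's edges at all distances, with the largest gain at 56.4 and the largest loss at -46.0 points.

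The largest gains had no common neighbourhood. The largest in the authors' deposited table was 56.4 percentage points, at 29337889 on chromosome 1. It was 558 kb from the predicted gene Gm597 and 1464 kb from Phf3, in a gap of 2.02 Mb. The next, 48.6 points, lay on chromosome 14 at 36017690, between the uncharacterised coding genes 4930596D02Rik and 4930474N05Rik. The third, 45.5 points, lay at 89602251 on chromosome 4, 291 kb from Cdkn2b, which encodes a cyclin-dependent kinase inhibitor, and 85.9 kb from the transcription factor gene Dmrta1. These sites lay outside every lncRNA and pseudogene span.

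Chromosome 14 held a further pair of the 10 largest gains. At 110553261, between Slitrk1 and Slitrk6, which encode neuronal transmembrane proteins, the deposited gain was 44.7 points, 194 kb from Slitrk6. At 104677088, inside the lncRNA gene D130009I18Rik and 154 kb from Obi1, it was 43.4 points. On chromosome 1 the authors' deposited table had a gain of 42.1 points at 95895840, 228 kb from St8sia4, a polysialic acid synthase gene. On chromosome 9 it had 41.3 points at 92717244, 109 kb from Plod2, which encodes a collagen-modifying hydroxylase. Both of these sites lay in gaps of over 1 Mb.

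The other 3 of the 10 largest gains were under 40 points. On chromosome 2 both gains rounded to 39.8 points in the authors' deposited table. One lay at 173977544, 98.7 kb from the syntaxin gene Stx16. The other lay at 117954560, 157 kb from Thbs1, which encodes the matrix protein thrombospondin-1, and inside the lncRNA gene Gm13986. At 85041626 on chromosome 3 the gain was 38.5 points, 62.4 kb from Fbxw7, which encodes a substrate receptor of a ubiquitin ligase.

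The largest loss lay deep in a gene desert. In the authors' deposited table it was -46.0 percentage points, at 50781602 on chromosome 8, inside the lncRNA gene 1700019L22Rik. The site was 1.26 Mb from Tenm3, an adhesion gene of the teneurin family, and 2.73 Mb from Aga, which encodes a lysosomal enzyme. A gain of 37.1 points lay only 132 bp away, at 50781470.

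The next losses lay on chromosomes 2, 6 and 1, and like all distal CpGs they lay far from coding genes by the rule. At 50486243 on chromosome 2 the authors' deposited table had -44.6 points, 187 kb from the cobalamin trafficking gene Mmadhc. At 19601895 on chromosome 6 it had -44.2 points, between Ankrd7 (722 kb) and the potassium channel gene Kcnd2 (1613 kb). At 114557897 on chromosome 1 it had -42.1 points, 1127 kb from Cntnap5a, a gene of the contactin-associated family. The chromosome 6 and chromosome 1 sites lay in gaps of 2.34 and 3.82 Mb, and the chromosome 2 site in one of 0.83 Mb. Of all distal CpGs, 44.2% lay in gaps of over 1 Mb, and a link of size with gap length was not tested.

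Of the other 6 losses among the 10 largest, 4 reached 40 points. The authors' deposited table had -41.2 points at 102322059 on chromosome 14, 387 kb from Lmo7, and -41.0 points at 75082454 on chromosome 4, between Kdm4c, a histone demethylase gene, and Dmac1. On the X chromosome it had -40.2 points at 103129432, 53.5 kb from 4930519F16Rik. On chromosome 7 it had -40.1 points at 40755139, 143 kb from Vstm2b. The last pair were -39.9 points at 35453149 on chromosome 13, 207 kb from Cdyl, which encodes a chromodomain protein, and -39.5 points at 20804362 on chromosome 16, 62 kb from Chrd, which encodes an antagonist of bone morphogenetic proteins. The deposited q-value was 0 at 9 of the 10 largest losses and 8.51e-13 at the site on chromosome 7.

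At the 50 kb boundary the sites on either side had differences of the same order. Among the distal CpGs just past it were sites 50.3 to 52.5 kb from Nmur2, Slc22a30, Slc25a48 and Runx3. Their differences in the authors' deposited table were 25.3, -29.1, 27.6 and 30.4 points. The 5 sites just under it lay 48.8 to 49.4 kb from coding spans, with differences of -36.5, 36.7, 32.4, 26.2 and 45.4 points.

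The 6 farthest sites lay in gaps of over 3 Mb. Cadherin and protocadherin genes, which encode calcium-dependent adhesion proteins, flank 12 of the 28 gaps of that length, and several are named here as landmarks. The site at 60017200 on chromosome 5, 1792 kb from G6pd2 and 1884 kb from Pcdh7, had a gain of 28.0 points in the authors' deposited table. The site at 81797648 on chromosome 14, between Olfm4 and Pcdh17, had a gain of 28.5 points at 1775 kb. At 102256516 on chromosome 1, between Cntnap5b and Cdh20, the deposited difference was a difference of -32.5 points at 1766 kb. The other 3 sites lay between Pcdh20 and Pcdh9 (-26.4 points), between Cdh6 and Cdh9 (26.8 points) and in the gap before the catenin gene Ctnna2 (29.3 points). None of the 6 reached 40 points, a size that only 2.94% of all distal CpGs reached.

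Distal CpGs inside lncRNA genes were 68 of 511 (13.3%), in 62 lncRNA genes. RefSeq lncRNA spans cover 11% of the DNA that the rule could draw on, so this share was near that of the DNA itself. Of the 68 sites, 38 were gains and 30 were losses (55.9% gains, against 48.4% over the list), with a median size of 27 points. Sites outside lncRNA spans were 204 gains and 239 losses, with a median size of 28.1 points. All 62 genes carry provisional names, 46 of the form Gm or LOC with a number and 16 ending in Rik, and their functions are not described here.

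A pair of distal CpGs shared an lncRNA gene in 8 cases, and no lncRNA gene held more. In 5 of the 8 the sites were of opposite direction. Most of the 8 pairs lay within 180 bp, a spacing at which 83.9% of other adjacent listed pairs were opposite. Nothing is therefore read from this count about lncRNA genes. Besides 1700019L22Rik, the authors' deposited table had -33.0 and 25.3 points in G630018N14Rik, which lies 182 kb from Foxq1, and -29.1 and 31.0 points in Gm20752. It had 28.4 and -28.9 points in 4921515E04Rik beside Cdh10, and -25.9 and 25.1 points in Gm20754. The same direction was seen in Gm33714 beside the pentraxin gene Nptx2 (38.3 and 26.3 points). It was also seen in C230014O12Rik beside Pbx3 (-36.1 and -25.3 points) and in E330035G20Rik (-34.2 and -31.2 points).

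Pseudogene spans held 7 distal CpGs (1.37%), against 1.3% of the DNA. Of these, 3 were gains and 4 were losses, between -32.5 and 29.4 points in the authors' deposited table. The 199 kb span of Gm3116 held the site near Cntnap5b named above. Gm6625, 103 kb from the zinc finger gene Sall1, held a difference of -30.1 points, and Gm10232, at the start of chromosome 17, a gain of 29.4 points. The others lay in Gm2594 (-27.2 points), Timm29-ps1 (-27 points), Gm3816 (26.6 points) and Rnls (26.4 points). The gene table lists Rnls as a transcribed pseudogene.

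A further 5 sites lay in annotated spans of other kinds. Antigen receptor loci are annotated by their segments and not as protein-coding genes, so parts of them count as far from coding DNA. The immunoglobulin heavy chain locus Igh on chromosome 12 held a difference of -31.4 points at 114855373 and a gain of 34.9 points at 115918023 in the authors' deposited table. The kappa light chain locus Igk on chromosome 6 held gains of 27.8 points at 68362351 and 25.3 points at 70500352. The last of the 5 lay in Vis1, 122 kb from Zeb2, a zinc finger repressor gene with a role in dendritic cell subsets, and was a gain of 31.4 points. The remaining 431 sites (84.3%), 197 gains and 234 losses, lay in no annotated gene.

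MicroRNA genes lay within 50 kb of 9 distal CpGs (1.76%), with 17 hairpins in all. The same held for 8.2% of all listed sites and for 1.04% of the DNA beyond 50 kb from coding genes, so few distal CpGs were involved. MicroRNAs guide silencing complexes to messages through the seed, bases 2 to 8 of the mature strand. Mature sequences in RefSeq were matched for 13 of the hairpins. Those beside a pair of sites are printed because they belong to families known for roles in immune cells, the miR-17 to miR-92 cluster on chromosome 14 and a let-7 pair on chromosome 15. Capitals mark the seed.
mmu-miR-17-5p: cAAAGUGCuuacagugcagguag
mmu-miR-20a-5p: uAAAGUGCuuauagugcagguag
mmu-miR-18a-5p: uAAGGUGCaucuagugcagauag
mmu-miR-19a-3p: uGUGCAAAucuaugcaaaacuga
mmu-miR-19b-3p: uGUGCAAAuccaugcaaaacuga
mmu-miR-92a-3p: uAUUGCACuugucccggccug
mmu-let-7c-5p: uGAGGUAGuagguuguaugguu
mmu-let-7b-5p: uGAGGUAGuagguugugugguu
miR-17-5p and miR-20a-5p share a seed, as do miR-19a-3p and miR-19b-3p, and as do the let-7 strands. The hairpins Mir17, Mir18, Mir19a, Mir20a, Mir19b-1 and Mir92-1 began 27 to 27.8 kb from the site at 115016628 on chromosome 14, which had a gain of 26.6 points in the authors' deposited table. The nearest coding gene there was Gpc5, 75.6 kb away. Mirlet7c-2 and Mirlet7b lay 28.4 and 29.1 kb from the site at 85678180 on chromosome 15, which had a difference of -36.3 points. That site lay between Wnt7b (96.4 kb) and Ppara (56.7 kb), the latter encoding a nuclear receptor that metabolites of DEHP activate. No expression of these genes was measured here. Mir124a-2, a microRNA gene of neurons, lay 7.94 kb from a difference of -25.4 points on chromosome 3, and Mir3970 lay 1.93 kb from the site in Rnls.

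Gene deserts, taken as gaps of over 1 Mb between coding spans, held 226 of the distal CpGs (44.2%). Deserts make up 50.2% of the DNA more than 50 kb from coding genes, and distal CpGs were present there at 0.498 per Mb, against 0.629 per Mb in shorter gaps. The number of CpGs that RRBS covered in each is unknown, so these densities are not rates of change. In deserts the authors' deposited table had 102 gains and 124 losses (45.1% gains, 48.4% over the list), and in shorter gaps 138 and 145. Of 268 deserts, 139 (51.9%) held at least 1 distal CpG and 129 held none. Sizes were alike, with medians of 28.0 and 27.9 points.

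Of the 60 deserts with at least 2 distal CpGs, 43 held gains and losses, 4 held gains alone and 13 held losses alone. In 7 of the 43 the only sites were an opposite pair within 1000 bp. When sites with another distal CpG within 1000 bp were left out, 46 deserts had at least 2 sites and 27 of them held both directions. With gains and losses near equal in number in the whole list (48.4% gains), these counts are a description and nothing is read from them about the deserts. The gap between Alcam, an adhesion gene of the immunoglobulin superfamily that leukocytes also use, and Zpld1 on chromosome 16 held the most, with 6 sites over 2.77 Mb. In the authors' deposited table these were 2 gains, the larger 36.4 points, and 4 losses, the largest -30.6 points. The gap between Olfm4 and the protocadherin gene Pcdh17 on chromosome 14 held 5 sites over 4.42 Mb, from -27.1 to 28.7 points.

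The other 4 of the 6 deserts with the most distal CpGs held 4 sites each. Between the potassium channel gene Kcnt2 and Cdc73 on chromosome 1 there were 2 gains, up to 35.5 points, and 2 losses, down to -26.3 points. Between Nmbr, a neuropeptide receptor gene, and Cited2 on chromosome 10 there were 3 gains, up to 27.1 points, and a difference of -28.2 points in the authors' deposited table. Between Fstl5 and Rapgef2 on chromosome 3 there were 3 gains, up to 31.2 points, and a difference of -27.2 points. Between Ankrd7 and Kcnd2 on chromosome 6 there were 3 losses, the largest the -44.2 points named above, and a gain of 25.7 points.

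**Figure D2:**
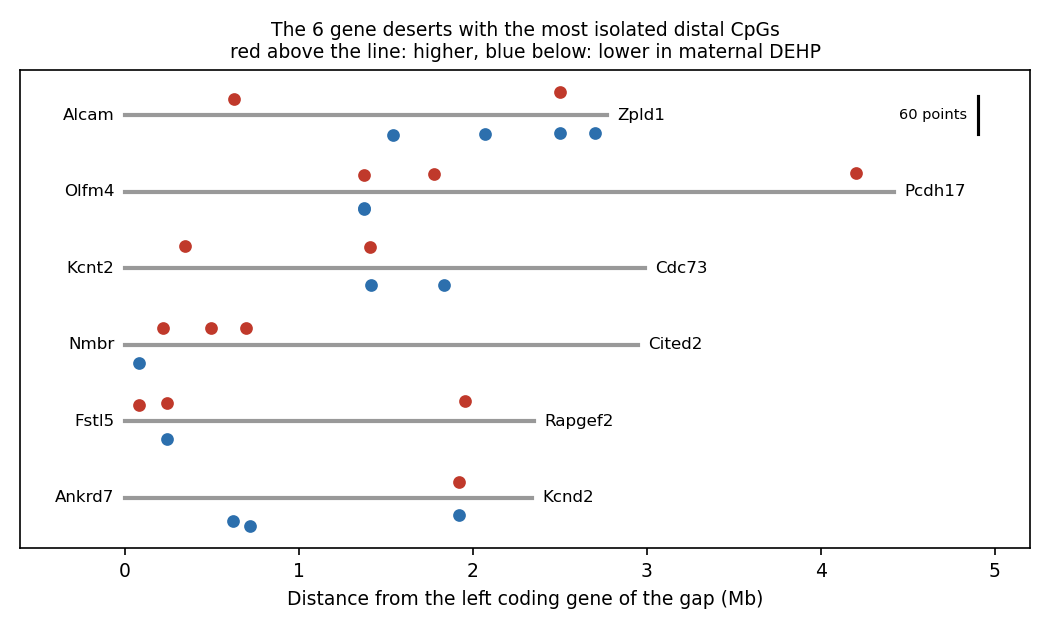
Isolated distal CpGs in the 6 gene deserts with the most of them, each grey line a gap between the coding genes named at its ends and drawn to scale in Mb from its left gene. A red point above the line is a gain and a blue point below it a loss, with its height proportional to the difference (scale bar of 60 percentage points); all 6 gaps hold both directions, and the losses between Olfm4 and Pcdh17 overlap in the drawing.

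Distal CpGs were found on all 20 chromosomes. The X chromosome held the most, 53 sites (10.4% of the 511, against 8.33% of the list), of which 25 were gains and 28 were losses in the authors' deposited table. The chromosome also has 75.3 Mb of DNA beyond 50 kb from coding genes, the most of any. Per Mb of such DNA it held 0.704 sites, against 0.546 on autosomes together. Chromosomes 19, 17 and 16 had higher densities than X, and chromosome 18 had the lowest, 0.304 per Mb (11 sites). The whole list was also denser on X, with 1.39 sites per Mb of chromosome against 1.07 on autosomes.

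The split of directions varied between chromosomes by count. The lowest share of gains was on chromosome 9, with 5 gains and 17 losses (22.7% gains). The highest was on chromosome 2, with 21 gains and 12 losses (63.6%), against 48.4% gains in the whole list. These counts come from the authors' deposited table, are small, and are the extremes of 20 chromosomes, named after they were seen.

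**Figure D3:**
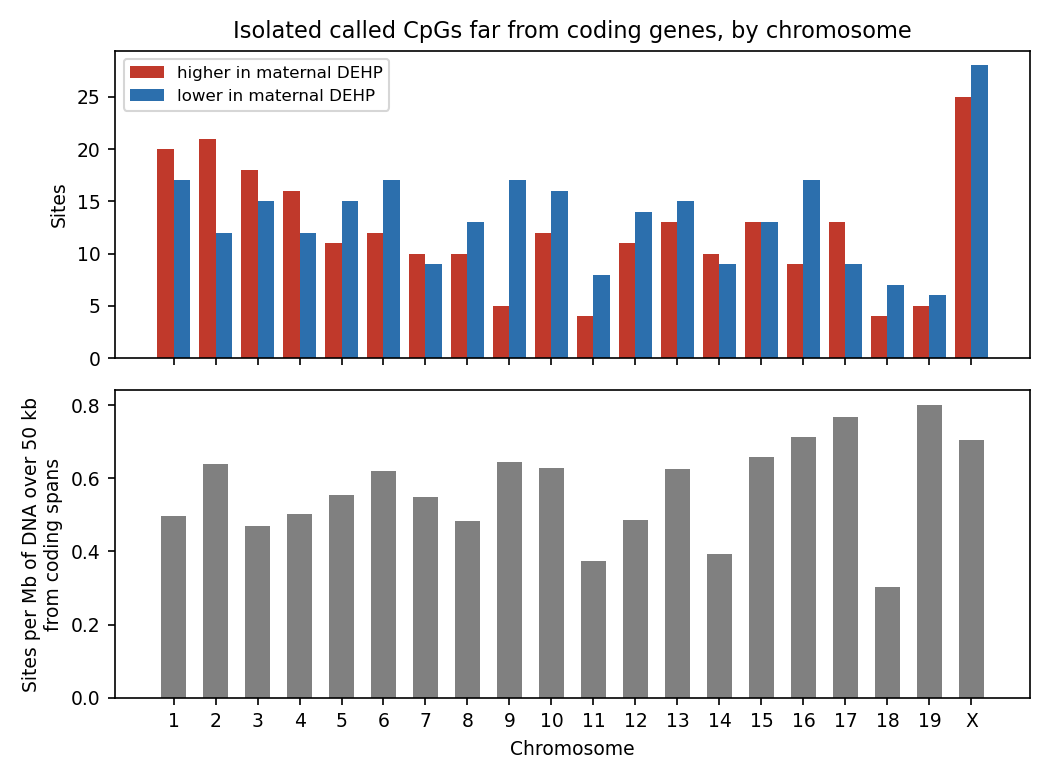
Upper panel, number of isolated distal CpGs with a gain (red) and a loss (blue) on each chromosome; lower panel, their number per Mb of DNA more than 50 kb from coding spans. The X chromosome has the highest bars in the upper panel (25 gains, 28 losses) and 0.704 sites per Mb in the lower, where chromosome 18 is lowest at 0.304.

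Most distal CpGs had no other listed site near them. The rule sets this in part, because it left out 108 of the 628 sites beyond 50 kb for a listed row within 100 bp. The same shares were not taken over the whole list, so the spacing is a description of these sites alone. Of the 511, 442 (86.5%) had none within 10 kb and 390 (76.3%) none within 100 kb, and the median distance to the nearest listed site was 465 kb. A further distal CpG within 10 kb was present at 67 sites, in 34 neighbouring pairs.

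Pairs more than 100 bp and up to 180 bp apart were nearly always of opposite direction. Of 24 such pairs, with spacings of 112 to 156 bp, 22 (91.7%) joined a gain to a loss. Among other adjacent listed sites at that spacing, 99 of 118 (83.9%) did, so the pattern was shared with the rest of the list. The first site along the chromosome was the gain in 10 of the 22 pairs and the loss in 12. The sizes within an opposite pair differed by at most 9.0 points, with a median of 3.1 points, in the authors' deposited table. Sizes of all distal CpGs lie close together, with a minimum of 25 points and quartiles of 26.2 and 31.0 points. A small difference in size is therefore common to many sites, and pairs were not compared with unpaired sites. At 133719701 and 133719839 on chromosome 5, for example, the differences were 37.0 and -37.2 points, 380 kb from Castor2. At 75343473 and 75343602 on chromosome 6, in the desert before Ctnna2, they were 29.3 and -26.3 points.

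The same-direction pairs in that range were the Nptx2 pair on chromosome 5 and the pair in E330035G20Rik on chromosome 12, both named above. From 180 to 1000 bp, 3 of 4 pairs were opposite, and from 1 to 10 kb 4 of 6 were. Since every listed site passed a minimum of 25 points, a pair is present only where both its sites did.

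**Figure D4:**
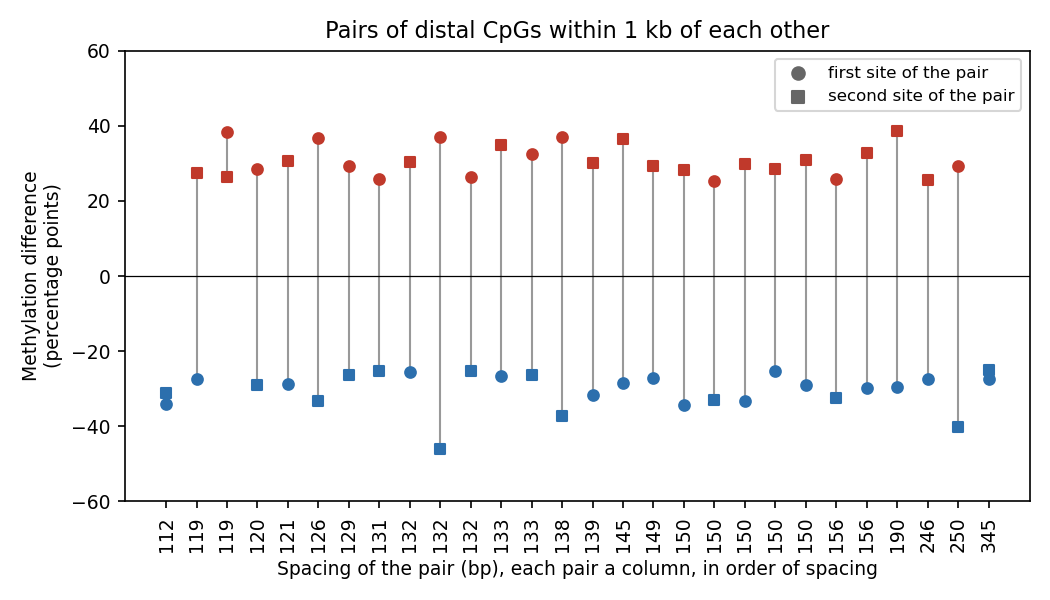
Methylation differences in percentage points of the 28 neighbouring pairs of isolated distal CpGs within 1000 bp of each other, each pair a column labelled with its spacing in bp, circles for the first and squares for the second site along the chromosome. In 25 of the 28 columns one site lies above 0 and the other below it.

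The nearest coding gene was 1 of 416 different genes. Of these, 343 were nearest to a single distal CpG, 57 to 2, and Zpld1 to the most, 5 sites. Gene families that border deserts were frequent among them, and so was the DNA around those families. Genes of neuronal adhesion, axon guidance and the synapse were nearest to 44 distal CpGs (8.61%), 33 genes in all, and to 9.98% of the DNA beyond 50 kb. The share of sites was therefore close to the share of DNA. Their sites were 21 gains and 23 losses, with a median size of 28.3 points.

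The largest at these adhesion and guidance genes, beside the pair near Tenm3, the gain near Slitrk6 and the loss near Cntnap5a, was a difference of -39.2 points on the X chromosome, 450 kb from the protocadherin gene Pcdh19. The cadherin genes Cdh9 and Cdh10 on chromosome 15 were each nearest to 4 distal CpGs, 2 gains and 2 losses. In the authors' deposited table these ran from -34.6 to 29.8 points at Cdh9 and from -28.9 to 28.4 points at Cdh10.

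A list of immune and dendritic cell genes, made of cytokine, chemokine, receptor and histocompatibility families and a few transcription factor genes, was nearest to 3 distal CpGs (0.587%). It was nearest to 1.02% of the DNA beyond 50 kb and to 2.9% of the isolated sites that lie outside but within 50 kb of genes. At so few sites the share of sites and that of the DNA cannot be told apart. The list does not hold every immune gene: Zeb2, which is not on it, was nearest to the gain in Vis1 and to a difference of -25.7 points 822 kb away, and the immune genes Ly96 (-25.8 points) and Csf3r (25.7 points) were each nearest to 1 site. The 3 sites on the list were at 2 genes. Id2, whose protein is needed for the development of several conventional dendritic cells, was nearest to a pair of opposite sites on chromosome 12. The authors' deposited table had -35.1 points at 25344808, 249 kb from Id2, and 35.6 points at 25674579, 578 kb from it. Runx3, a transcription factor gene of T cells and dendritic cells, was nearest to the gain of 30.4 points at 135068152 on chromosome 4, 52.5 kb away. Of 9 neurotrophin and neurotrophin receptor genes, among them Ntf3, which the series title names, 0 were nearest to a distal CpG, against 0.12% of the DNA.

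Developmental transcription factor genes were nearest to 16 distal CpGs (3.13%, against 3.54% of the DNA), 8 gains and 8 losses at 12 genes. Beside those at Id2, the larger ones in the authors' deposited table included a difference of -33.0 points 182 kb from Foxq1, a forkhead factor gene. Genes on the ion channel list were nearest to 15 sites (2.94%, against 2.56%), 7 gains and 8 losses. They included a gain of 35.5 points 213 kb from the potassium channel gene Kcnh7 and one of equal rounded size 346 kb from Kcnt2. The list was made by symbol prefix and not by function, and Kcnrg (-30.3 points) is on it through the prefix Kcn. Olfactory, vomeronasal and taste receptor genes were nearest to 5 (0.978%, against 0.632%), the largest a difference of -37.8 points 83 kb from Vmn2r37. None of the sites at these 3 lists reached 40 points, a size that only 2.94% of all distal CpGs reached, so nothing is read from this.

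**Figure D5:**
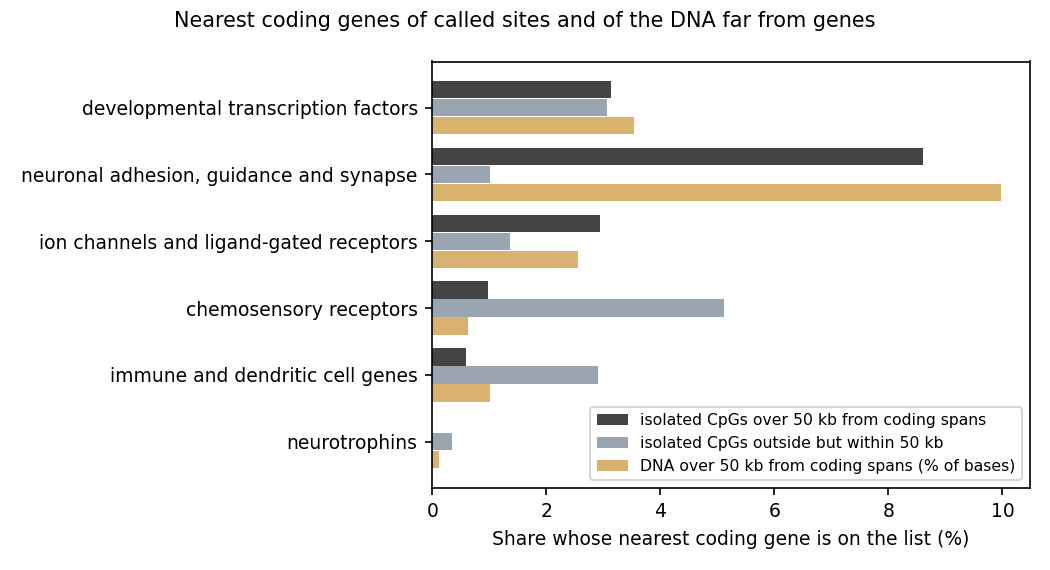
Share in percent of isolated distal CpGs (dark), of isolated sites outside but within 50 kb of coding spans (grey) and of the DNA more than 50 kb from coding spans (yellow, in percent of bases) whose nearest coding gene belongs to each of 6 gene lists. For the neuronal adhesion list the dark and yellow bars reach 8.61% and 9.98% and the grey bar 1.02%; for immune and dendritic cell genes they reach 0.587%, 1.02% and 2.9%.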

How the data were processed

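RRBS was measured in 12 libraries, 6 per maternal group. Per the submitters' processing notes, methylKit and the build GRCm38 (mm10) were used. The sources used here do not give the aligner, the coverage minimum or the form of the test. Per the file headers, each row of the deposited tables has a methylation difference with its p-value and q-value. The smallest size of a difference is 25 percentage points and the largest q-value 3.62e-05, and values per library and depths were not used here. The header gives the difference no unit, and it is read in percentage points from its range.

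Sites were placed against the RefSeq GRCm38.p6 gene table (21521 coding, 12607 lncRNA and 10408 pseudogene spans), leaving out 345 genes whose coordinates lie on scaffolds or patches. Python 3.11.15, pandas 2.3.3 and numpy 2.4.6 were used, and the selection was tested on simulated positions. No test was run: counts, shares and medians stand beside those of the list or of the DNA. Shares of DNA and densities per Mb count all bases and not the CpGs that RRBS covered, whose number is unknown. The deposited p-values and q-values are the authors' own. Sites named are the 10 largest gains and losses, the 6 farthest, the 5 on either side of 50 kb, up to 6 in lncRNA and 8 in pseudogene spans, the 6 fullest deserts and up to 5 per neighbour list. Some sites that this rule names are not reported here. Some family prefixes in the neighbour lists, such as Cdh and Sox, were limited to numbered family members. Others, such as Pcdh and Kcn, took every symbol that starts with them. Sites beside microRNA genes, in immunoglobulin loci and in Vis1, the fuller account of lncRNA genes with several sites and the example pairs were chosen after their values were seen, as were Zeb2, Ly96 and Csf3r, the DNA share and the 180 bp limit for pairs. The members and lists were chosen with earlier results of these data known.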

Additional observations from a re-analysis of the deposited data

How the results depend on the processing

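The list has no value per library, so no library could be left out. No paired analysis was possible because the tables carry 1 difference per site and no value per library. Of 107 values recomputed for 9 results, 93 stayed within the 95% interval of the main value (counts within 1.5 times). The settings draw largely on the same sites, and the interval treats sites as independent. The 93 is therefore a description and not a measure of certainty. The share of gains ran from 43.7% to 49% over all settings. With at least 30 and 40 points, 167 and 15 sites were left, with median gains of 32.7 and 44.7 and median losses of -33.2 and -41.6 points, which the higher minimum sets. With at least 40 points, 60% lay in deserts, 6.67% on X and 0% in pseudogenes, among 15 sites. Without the isolation filter 3.24% lay in pseudogenes, with clustered sites added. The share in deserts was 35.3% beyond 25 kb, 55.2% beyond 100 kb, 69.5% with gaps of over 500 kb and 20.2% with over 2 Mb, as those definitions set. A q-value under 0.001 removed no site, so its values equal the main ones by construction. Keeping the scaffold genes, an alternative chosen after seeing the data, changed no value and is among the 93.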

Other observations

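Beyond 50 kb from coding genes the authors' deposited table also held 108 sites with another listed site within 100 bp, in 37 runs. Of these runs, 14 were gains alone, 17 were losses alone and 6 held both directions. The longest lay on chromosome 19 between 3083519 and 3083723, 175 kb from Ighmbp2, with 15 losses of -25.5 to -33.4 percentage points. On chromosome 17, around the ribosomal RNA pseudogene Rn18s-rs5 and 103 to 106 kb from Esp38, 4 runs lay close together. Along the chromosome these were 3 gains of 26 to 31.2 points from 39844667, 5 losses of -28.6 to -39.5 points from 39845836, 9 gains of 25.1 to 39.6 points from 39846122 and 6 losses of -25.8 to -31.2 points from 39847054. The last of these runs lay inside Rn18s-rs5. The largest differences in any run were a loss of -50.7 points at one of a pair of sites on chromosome 1, 134 kb from Pcmtd1, and a gain of 48.4 points at one of a pair on chromosome 12, 258 kb from Gm10476.

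At lncRNA ends the rule left out 11 sites beyond 50 kb, 4 gains and 7 losses. The largest gain in the authors' deposited table was 43.1 points at 43014072 on chromosome 6, 57.6 kb from the olfactory receptor gene Olfr444. The largest loss was -34.5 points at 55802791 on chromosome 5, 1.68 Mb from Stim2, which encodes a calcium sensor of the endoplasmic reticulum. A loss of -27.8 points lay at 110046506 on chromosome 12, in the lncRNA gene Gm34719 and 233 kb from the imprinted gene Dio3. A further 4 sites lay on scaffolds outside the chromosomes, with differences of -40.5, 27.7 and -26.3 points on one and 33.1 points on another.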
